A study of Homo sapiens with 8 samples.

Results

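MM.1S cells, an established human multiple myeloma (MM) cell line, were examined for 10 genes that encode surface antigens and adhesion receptors of MM cells: TNFRSF17, SDC1, CD38, SLAMF7, GPRC5D, FCRL5, TNFRSF13B, CD40, ITGA4 and CXCR4. The 10 genes were chosen by name, as targets of MM therapy or receptors for the bone marrow niche, out of 60671 genes listed in the data, and each name matched 1 gene. The choice was made with earlier results of these data known, so the 10 were not tested as a set. RNA was sequenced from 8 samples in 4 groups of 2 after 12 h: cells treated with bortezomib plus FeAc, with bortezomib alone, with FeAc alone and with vehicle. Bortezomib is a proteasome inhibitor used against MM, and FeAc is the iron compound the study used for iron supplementation. All samples are labelled wild type. The dose of bortezomib is not given in the sources used here. MM.1S is a single cell line, so that no difference between patients or lines enters these values.

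Plasma cells, the normal counterparts of MM cells, lose most B cell antigens and carry a set of surface proteins that antibodies and engineered T cells can bind. Some of these proteins are receptors for survival signals from the marrow: BCMA, encoded by TNFRSF17, and TACI, encoded by TNFRSF13B, bind the ligands APRIL and BAFF, and CD40 binds CD40 ligand. Others hold MM cells in the niche, since the integrin alpha 4 chain encoded by ITGA4 forms VLA-4 with the beta 1 chain and binds VCAM-1 on stromal cells, and CXCR4 is the receptor for the chemokine CXCL12. Transcript levels were measured here, and protein on the cell surface was not.

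The values were read as TPM (a transcript abundance that takes gene length into account and sets every sample to nearly one total), which summed to between 994968 and 996780 per sample. Read depth is unknown because the values at hand are TPM and not read counts, so the precision behind each value cannot be given. The libraries held between 13020 and 13770 genes at 1 TPM or more. All 6 plasma cell markers fixed for the check (IRF4, PRDM1, XBP1, MZB1, JCHAIN and POU2AF1) averaged at least 1 TPM over the 8 samples, while none of the 4 markers each of mature B cells, T cells and NK cells did. Of 4 markers of monocytes and macrophages CD68 alone did, at 7.23 to 13.7 TPM over the samples. The 2 samples with bortezomib plus FeAc differed from each other. Mitochondrially encoded genes took 2.99% of the TPM of replicate 1 and 10.1% of that of replicate 2. They took 5.49% and 8.23% with bortezomib and 8.16% to 14.3% in the samples without bortezomib. Replicate 1 had the lowest level of all 8 samples for 6 of the 10 members, a count that was not set against all genes. The 2 samples correlated at 0.959 across genes, against 0.969 to 0.975 in the other groups, which does not tell which of them deviates. HSPA1A, an inducible heat shock chaperone that responds to proteasome inhibition, was at 5992.9 and 3052.62 TPM with bortezomib plus FeAc, 6388.15 and 4568.66 TPM with bortezomib, 3.34 and 2.2 TPM with FeAc, and 7.18 and 1.69 TPM with vehicle. The samples labelled as treated with bortezomib were high and the others low, although HSPA1A shares near-identical sequence with HSPA1B, and how reads were split between them is not known. The bortezomib samples and the samples without bortezomib are in separate deposited tables, so that bortezomib and any difference between the tables cannot be told apart.

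The study made guide RNAs against CD40 and ITGA4, to knock out CD40 and VLA-4 in other experiments. None of the 8 samples is a knockout. The guides are shown because they locate the parts of these receptors that the study disrupted. They are printed from 5′ to 3′ in lower case, with the 3 bases of the adjacent NGG motif in capitals.
CD40 guide 1: aggaattcgctttcaccgcaAGG
CD40 guide 2: attcgctttcaccgcaaggaAGG
ITGA4 guide 1: agtagccgaacagcgtgttgTGG
ITGA4 guide 3: gagctgttcgcacgtctggcCGG
CD40 guides 1 and 2 overlap in exon 3 of CD40, in coding sequence, and lie on the minus strand of chromosome 20 from 46122283 to 46122305 and from 46122279 to 46122301 (GRCh38, GENCODE release 29). ITGA4 guide 1 lies in coding sequence of exon 1 on the minus strand of chromosome 2 from 181457795 to 181457817. ITGA4 guide 3 matches the same strand from 181458288 to 181458310, also in coding sequence. ITGA4 guide 2 overlaps guide 1 and is not shown, and CD40 guide 3 matched no annotated CD40 transcript in full.

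The levels of the 10 members spanned several orders of magnitude and were compared per gene length, as TPM. With bortezomib plus FeAc the order was led by SLAMF7, at 364.895 ± 31.5 TPM (mean ± SD, n = 2 in every group), ahead of TNFRSF17 at 328.47 ± 12.0 TPM, and the samples of these 2 genes did not overlap. With bortezomib alone SLAMF7 averaged 354.37 ± 1.32 TPM and TNFRSF17 339.54 ± 20.3 TPM, with overlapping samples. In FeAc-treated cells TNFRSF17 was the highest at 431.485 ± 83.7 TPM and SLAMF7 took place 3 at 272.825 ± 29.5 TPM. In vehicle-treated cells TNFRSF17 was also the highest, at 489.75 ± 119.9 TPM, followed by SDC1 at 255.69 ± 42.9, SLAMF7 at 252.93 ± 20.4, GPRC5D at 195.555 ± 19.9, TNFRSF13B at 138.93 ± 9.53, ITGA4 at 64.135 ± 3.87, CXCR4 at 58.85 ± 2.67, CD38 at 35.225 ± 7.01, CD40 at 9.785 ± 0.516 and FCRL5 at 0.475 TPM. SDC1 and SLAMF7 were the only neighbours in this order whose vehicle samples overlapped. GPRC5D lay below TNFRSF13B without overlap in both bortezomib groups, whereas it lay above TNFRSF13B with FeAc, where the samples overlapped, and with vehicle, where they did not. CD40 and CD38 were 8th and 9th, or 9th and 8th, in the bortezomib groups with overlapping samples, whereas CD38 lay above CD40 without overlap in the FeAc and vehicle groups.

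**Figure D1:**
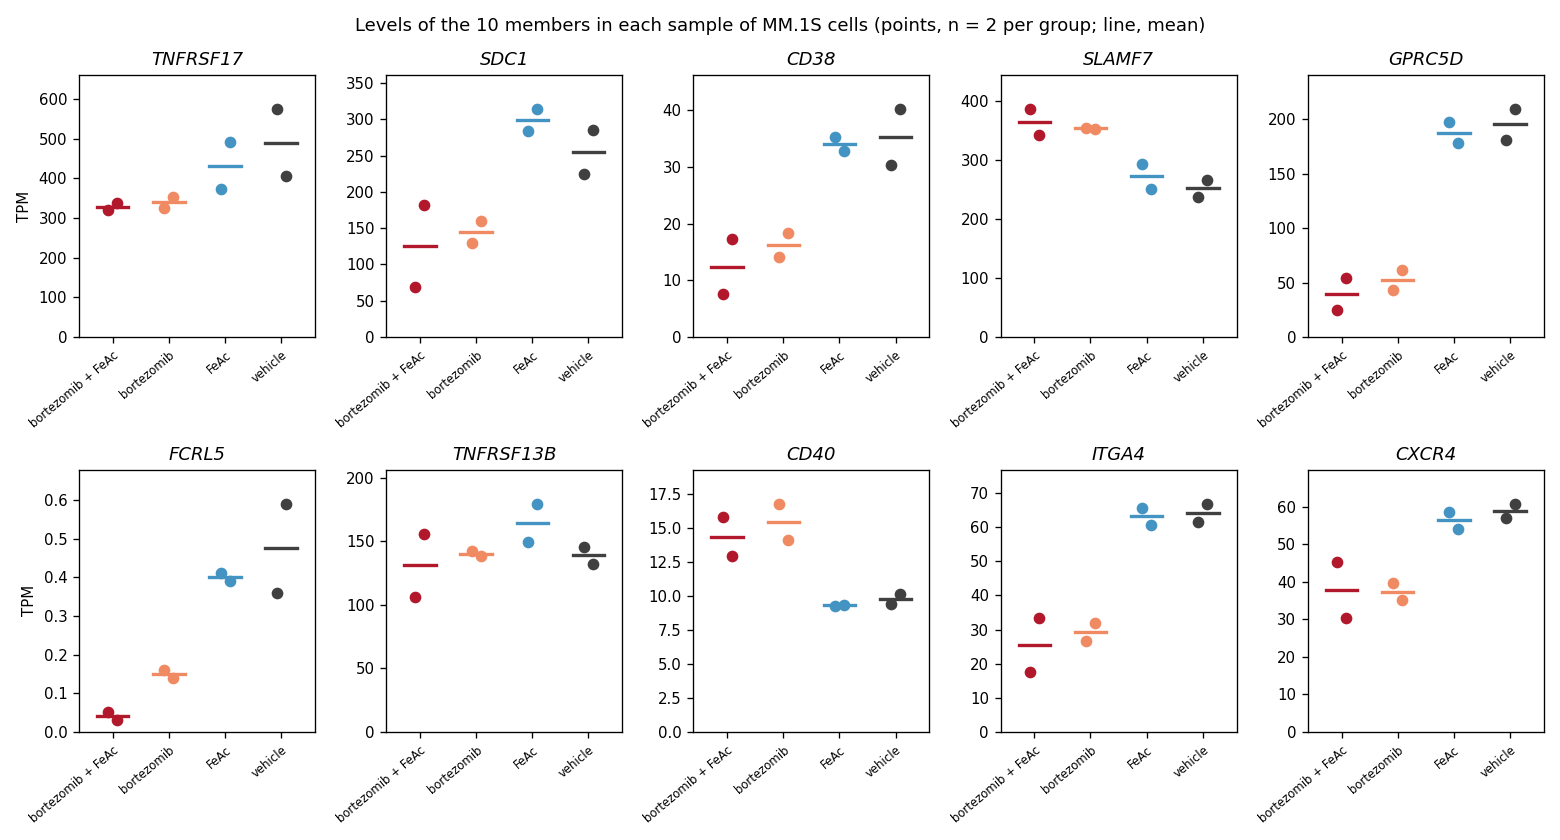
TPM of each of the 10 members (vertical axes starting at 0, with a scale of its own per gene) in the 8 samples (points), and group means as lines. GPRC5D, CD38, ITGA4 and SDC1 lie lower in all 4 bortezomib samples than in all 4 others, SLAMF7 and CD40 lie higher, and TNFRSF13B overlaps.

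To ask what proteasome inhibition did to these transcripts, bortezomib was set against vehicle, and the combination against FeAc, with limma on log2(TPM + 1) across every gene that averaged 1 TPM or more in any group. A gene was called at an adjusted p (Benjamini-Hochberg over all tested genes) under 0.05 and a fold change over 1.5. GPRC5D and ITGA4 fell with bortezomib against vehicle, and GPRC5D, ITGA4 and CD38 fell with bortezomib plus FeAc against FeAc. No member was called higher in either comparison, although 7 of the 9 tested members had an unadjusted p under 0.05 in each, as did 4476 and 4783 of all 14812 tested genes. Across all 14812 tested genes, 5.89% were called lower and 6.27% higher in the first comparison, and 8.86% lower and 4.94% higher in the second. When the effect of bortezomib was averaged over both comparisons, a test added after the data were seen, GPRC5D, ITGA4, CD38, CXCR4 and SDC1 were called lower and CD40 higher, where 14.3% of tested genes were lower and 8.22% higher. The averaged calls over all genes were 1218 higher and 2112 lower, against 1615 and 1498 with scaling by the median of ratios and 893 and 2990 after rescaling without mitochondrial and immunoglobulin genes. The medians over the 9 tested members were -0.64 and -0.59 in the 2 comparisons, against -0.056 and -0.17 over all tested genes. The members were chosen with earlier results of these data known, so these medians do not show that they changed more than other genes. In bulk RNA, fewer cells of a kind and less RNA per cell cannot be told apart.

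GPRC5D, an orphan receptor of the family C of G protein-coupled receptors and a target of bispecific antibodies, had the largest log2 fold changes of the 9 tested members in both comparisons. It was at 24.87 and 53.84 TPM with bortezomib plus FeAc, 43.04 and 61.84 TPM with bortezomib, 197.72 and 177.97 TPM with FeAc, and 181.51 and 209.6 TPM with vehicle. All 4 samples with bortezomib lay below all 4 without. The log2 fold change was -1.90 for bortezomib against vehicle (standard error 0.33, adjusted p = 0.0142 from limma) and -2.32 for bortezomib plus FeAc against FeAc (standard error 0.33, adjusted p = 0.00999 from limma), which correspond to fitted ratios of 0.268 and 0.20. GPRC5D (ENSG00000111291) lies on chromosome 12 from 12940775 to 12952147 on the minus strand (GRCh38). The antisense gene GPRC5D-AS1 overlaps it on the opposite strand without shared exon bases, at a mean of 3.23 TPM.

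CD38, an ectoenzyme that consumes NAD and the target of daratumumab, was at 7.49 and 17.27 TPM with bortezomib plus FeAc, 14.1 and 18.36 TPM with bortezomib, 35.24 and 32.71 TPM with FeAc, and 30.27 and 40.18 TPM with vehicle. The 4 samples with bortezomib lay below the 4 others. Bortezomib plus FeAc replicate 1 had the lowest level, and the other sample of its group was within the range of the bortezomib samples. The log2 fold change was -1.49 for bortezomib plus FeAc against FeAc (standard error 0.34, adjusted p = 0.0312 from limma) and -1.07 for bortezomib against vehicle (standard error 0.34), which missed the threshold at an adjusted p of 0.0798 from limma. CD38 (ENSG00000004468) is on the plus strand of chromosome 4 from 15778275 to 15853230.

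ITGA4, the integrin alpha 4 chain, was at 17.61 and 33.33 TPM with bortezomib plus FeAc, 26.5 and 31.84 TPM with bortezomib, 65.74 and 60.76 TPM with FeAc, and 61.4 and 66.87 TPM with vehicle. These groups were apart, and the level of both bortezomib groups was below that of every other sample. The log2 fold change was -1.11 for bortezomib against vehicle (standard error 0.27, adjusted p = 0.0366 from limma) and -1.34 for bortezomib plus FeAc against FeAc (standard error 0.27, adjusted p = 0.0222 from limma). ITGA4 (ENSG00000115232) maps to the plus strand of chromosome 2 from 181457202 to 181536187.

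Because GPRC5D, CD38 and ITGA4 fell together, the windows around their start sites are shown, from 250 bases before to 50 bases after the start (RefSeq, build GRCh38.p14), read 5′ to 3′ on the strand of the gene. Capitals mark matches on either strand to any of 6 motifs searched, of which GAANNTTC is from the heat shock element and TGACNNNGC from the antioxidant response element. The third was the GC box, GGGCGG. The other motifs were CCAAT, the TATA box TATAAA and ACGTG.
GPRC5D, chr12:12952121-12952420, minus strand: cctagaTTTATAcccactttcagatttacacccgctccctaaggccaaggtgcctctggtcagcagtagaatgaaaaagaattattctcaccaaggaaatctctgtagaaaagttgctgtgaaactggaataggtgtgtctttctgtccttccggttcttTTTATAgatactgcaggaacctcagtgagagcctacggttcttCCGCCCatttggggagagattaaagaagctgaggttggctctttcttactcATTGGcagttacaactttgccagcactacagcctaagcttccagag
CD38, chr4:15778078-15778377, plus strand: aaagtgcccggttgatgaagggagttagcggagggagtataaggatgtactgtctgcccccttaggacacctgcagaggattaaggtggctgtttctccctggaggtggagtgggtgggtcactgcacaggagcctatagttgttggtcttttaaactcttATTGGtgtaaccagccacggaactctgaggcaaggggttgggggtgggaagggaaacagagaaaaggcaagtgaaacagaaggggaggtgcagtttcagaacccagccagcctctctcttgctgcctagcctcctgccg
ITGA4, chr2:181457136-181457435, plus strand: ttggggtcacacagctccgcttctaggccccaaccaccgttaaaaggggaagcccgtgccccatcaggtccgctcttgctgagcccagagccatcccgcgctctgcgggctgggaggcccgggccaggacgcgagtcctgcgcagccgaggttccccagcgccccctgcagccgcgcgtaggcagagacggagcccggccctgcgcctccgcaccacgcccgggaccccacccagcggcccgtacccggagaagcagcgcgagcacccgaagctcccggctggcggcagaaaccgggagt
The GPRC5D window held 4 matches, to TATAAA at -244 and -90, to GGGCGG at -47 and to CCAAT at 5, counted from the start site to the leftmost base. The CD38 window held 1 match, to CCAAT at -89, and the ITGA4 window held 0. Over 35116 windows of 300 bases in the same table, GGGCGG was in 45.0%, CCAAT in 34.6%, ACGTG in 21.4%, TGACNNNGC in 13.3%, TATAAA in 11.5% and GAANNTTC in 6.77%. The windows of GPRC5D, CD38 and ITGA4 had a GC content of 45.0%, 54.0% and 72.3%, against a median of 58.7%. None of the motifs searched was in all 3 windows, and their windows differed in base composition. Of the 10 members 7 had a window in the table, and 1 of the 3 windows of CXCR4 was the only member window with GAANNTTC.

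SDC1 encodes syndecan 1 (CD138), the heparan sulfate proteoglycan that identifies plasma cells in the clinic. It was at 69.11 and 181.82 TPM with bortezomib plus FeAc, 129.76 and 159.85 TPM with bortezomib, 283.59 and 314.43 TPM with FeAc, and 225.32 and 286.06 TPM with vehicle. The bortezomib samples lay below the others, and the 2 samples with bortezomib plus FeAc differed by 2.63 times, the widest ratio within a group of any member. The log2 fold change was -0.81 for bortezomib against vehicle (standard error 0.39, adjusted p = 0.208 from limma) and -1.40 for bortezomib plus FeAc against FeAc (standard error 0.39, adjusted p = 0.0526 from limma), so SDC1 missed the threshold in both. Against FeAc it was -0.71 without bortezomib plus FeAc replicate 1 and -2.10 without replicate 2 of that group, where it was called (adjusted p = 0.00803 from limma). Its log2 fold change averaged over both was -1.11 (adjusted p = 0.0205 from limma) and was -0.76 without bortezomib plus FeAc replicate 1 (adjusted p = 0.0167 from limma).

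SLAMF7, a receptor of the SLAM family and the target of elotuzumab, stood on the other side. It was at 387.18 and 342.61 TPM with bortezomib plus FeAc, 355.3 and 353.44 TPM with bortezomib, 293.68 and 251.97 TPM with FeAc, and 238.49 and 267.37 TPM with vehicle. Every sample with bortezomib was above every sample without. The fitted ratio was 1.40 for bortezomib against vehicle and 1.34 for bortezomib plus FeAc against FeAc, with adjusted p-values of 0.0773 and 0.105 from limma. Averaged over both, SLAMF7 passed the adjusted p (0.0172 from limma) at a ratio of 1.37, under the fold threshold.

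TNFRSF17, which encodes BCMA, the target of several CAR T cell products, was at 319.98 and 336.96 TPM with bortezomib plus FeAc, 325.21 and 353.87 TPM with bortezomib, 372.32 and 490.65 TPM with FeAc, and 574.51 and 404.99 TPM with vehicle. The bortezomib samples lay close together below the others, and the 2 vehicle samples differed by 1.42 times. The log2 fold changes of -0.51 for bortezomib against vehicle and -0.38 for bortezomib plus FeAc against FeAc did not pass (adjusted p = 0.157 and 0.258 from limma). NPIPB2 overlaps TNFRSF17 on the opposite strand without shared exon bases. FCRL5, an Fc receptor-like antigen, was listed at 0.05 and 0.03 TPM with bortezomib plus FeAc, 0.16 and 0.14 TPM with bortezomib, 0.41 and 0.39 TPM with FeAc, and 0.36 and 0.59 TPM with vehicle. It stayed under 1 TPM in every sample and was not tested.

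TNFRSF13B, which encodes TACI, was at 106.24 and 155.75 TPM with bortezomib plus FeAc, 142.57 and 138.1 TPM with bortezomib, 149.17 and 179.47 TPM with FeAc, and 145.67 and 132.19 TPM with vehicle. It was the only member whose samples with and without bortezomib overlapped. Its log2 fold changes were 0.02 for bortezomib against vehicle, with a 95% interval of -0.45 to 0.48, and -0.34 for bortezomib plus FeAc against FeAc, with an interval of -0.81 to 0.12. The pseudogene TBC1D27P shares 615 exon bases with it on the same strand, at a mean of 27.2 TPM, and the authors' counting may have split reads between them.

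CD40, the receptor for CD40 ligand, was at 15.81 and 12.9 TPM with bortezomib plus FeAc, 16.76 and 14.11 TPM with bortezomib, 9.28 and 9.34 TPM with FeAc, and 9.42 and 10.15 TPM with vehicle. The 4 samples with bortezomib were above the 4 others. The log2 fold change was 0.60 for bortezomib against vehicle (standard error 0.17, adjusted p = 0.0573 from limma) and 0.57 for bortezomib plus FeAc against FeAc (standard error 0.17, adjusted p = 0.0628 from limma). Averaged over both it was 0.59 (standard error 0.12, adjusted p = 0.00974 from limma), a ratio that passed the fold threshold of 1.5 narrowly, and without bortezomib plus FeAc replicate 1 it was 0.52, under the fold threshold. CD40 (ENSG00000101017) is on chromosome 20 from 46118272 to 46129863.

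CXCR4 was at 45.16 and 30.31 TPM with bortezomib plus FeAc, 39.63 and 35.04 TPM with bortezomib, 58.62 and 53.97 TPM with FeAc, and 56.96 and 60.74 TPM with vehicle. The samples with bortezomib were below the others. The log2 fold changes were -0.64 for bortezomib against vehicle (standard error 0.20, adjusted p = 0.0718 from limma) and -0.59 for bortezomib plus FeAc against FeAc (standard error 0.20, adjusted p = 0.0829 from limma), and the average over both was called at -0.62 (adjusted p = 0.0140 from limma). In contrast to GPRC5D, CD38, ITGA4 and SDC1, CXCR4 was higher in bortezomib plus FeAc replicate 1 than in the other sample of that group.

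**Figure D2:**
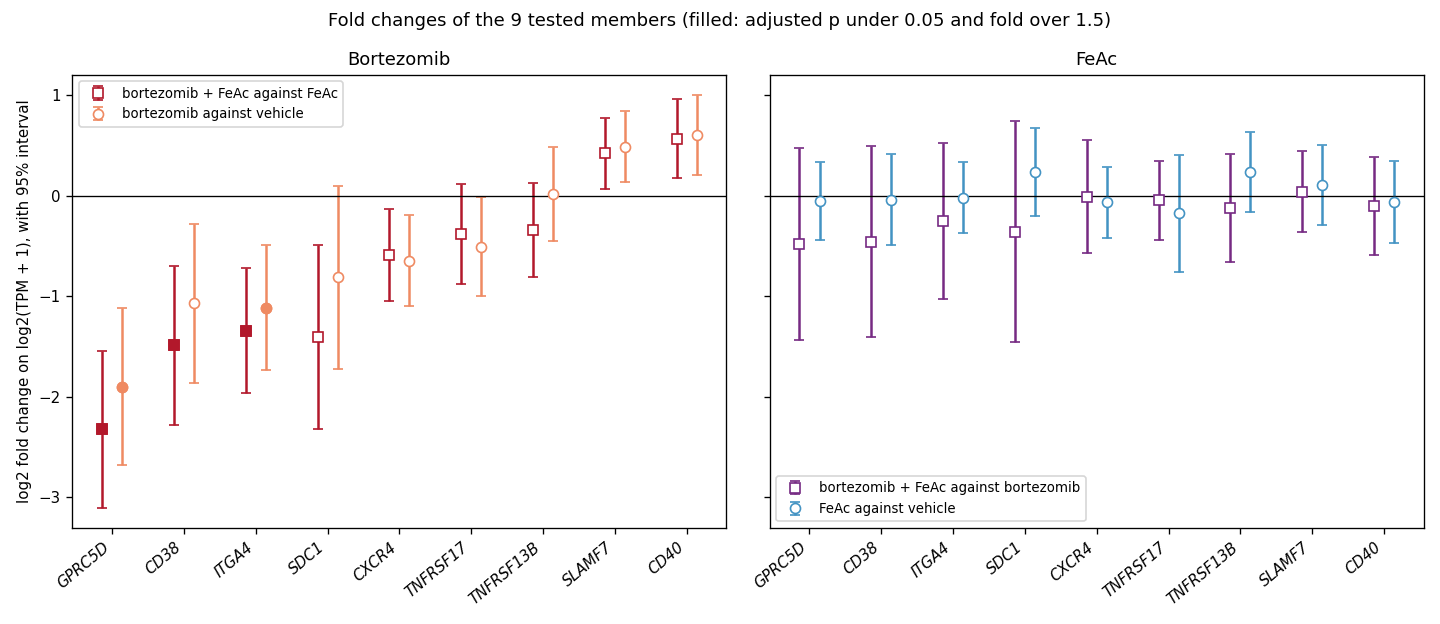
Log2 fold changes on log2(TPM + 1) of the 9 tested members with 95% intervals from limma (vertical axis), for both comparisons of bortezomib (left panel) and both comparisons of FeAc (right panel). Filled symbols are called genes, from GPRC5D at -2.32 and -1.90 in the left panel to none in the right panel, where every interval includes 0.

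Of the 9 tested members, 6 were lower in all 4 bortezomib samples than in the 4 others and 2 were higher, while 23.3% of all tested genes were lower and 13.1% higher by this measure. The calls depended on single samples, including samples outside the comparison, which enter its estimate of spread. The number of calls over all tested genes also changed with the sample left out. In both comparisons it was highest in the fits without 1 sample that called 6 members. Whether the members changed more than other genes in these fits was not tested. Against vehicle, GPRC5D and ITGA4 were no longer called without FeAc replicate 2 (adjusted p = 0.0594 and 0.0994 from limma), bortezomib replicate 1 (0.149 and 0.230), bortezomib replicate 2 (0.0817 and 0.143), vehicle replicate 1 (0.101 and 0.156) or vehicle replicate 2 (0.0814 and 0.142), and ITGA4 was not called without FeAc replicate 1 (0.0861). Without either bortezomib plus FeAc sample, 6 members were called against vehicle: SDC1, CD38, GPRC5D, ITGA4 and CXCR4 as lower and CD40 as higher. Against FeAc, 0 members were called without FeAc replicate 1, FeAc replicate 2 or bortezomib replicate 1, and GPRC5D alone was called without bortezomib replicate 2, vehicle replicate 1 or vehicle replicate 2. Without bortezomib plus FeAc replicate 1, GPRC5D and CXCR4 were called lower, with log2 fold changes of -1.78 and -0.87. Without replicate 2 of that group, SDC1, CD38, GPRC5D, TNFRSF13B and ITGA4 were called lower and CD40 higher. When only the samples with bortezomib plus FeAc and with FeAc were fitted, 0 members were called in that comparison (adjusted p of GPRC5D 0.0565 from limma), and when only the bortezomib and vehicle samples were fitted, 5 were called lower (SDC1, CD38, GPRC5D, ITGA4 and CXCR4). Averaged over both comparisons, GPRC5D and ITGA4 were called under every alternative run. The averaged call of CD38 was lost without bortezomib replicate 1 (adjusted p = 0.0570 from limma), and that of SDC1 without any 1 of the bortezomib, FeAc or vehicle samples (adjusted p between 0.0655 and 0.109 from limma). The averaged call of CXCR4 was lost without bortezomib plus FeAc replicate 2, either bortezomib sample, either FeAc sample or vehicle replicate 2, at log2 fold changes of -0.66 to -0.48, and that of CD40 without bortezomib plus FeAc replicate 1, bortezomib replicate 1, FeAc replicate 1 or vehicle replicate 1, at 0.52 to 0.58. With other settings the averaged call of SDC1 was lost without a filter on low values (adjusted p = 0.0744 from limma), that of CXCR4 with scaling by the median of ratios (log2 fold change -0.48) and that of CD40 after rescaling without mitochondrial and immunoglobulin genes (0.44). SLAMF7 was called higher with scaling by the median of ratios (0.59), and TNFRSF17 lower after that rescaling (-0.60).

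**Figure D3:**
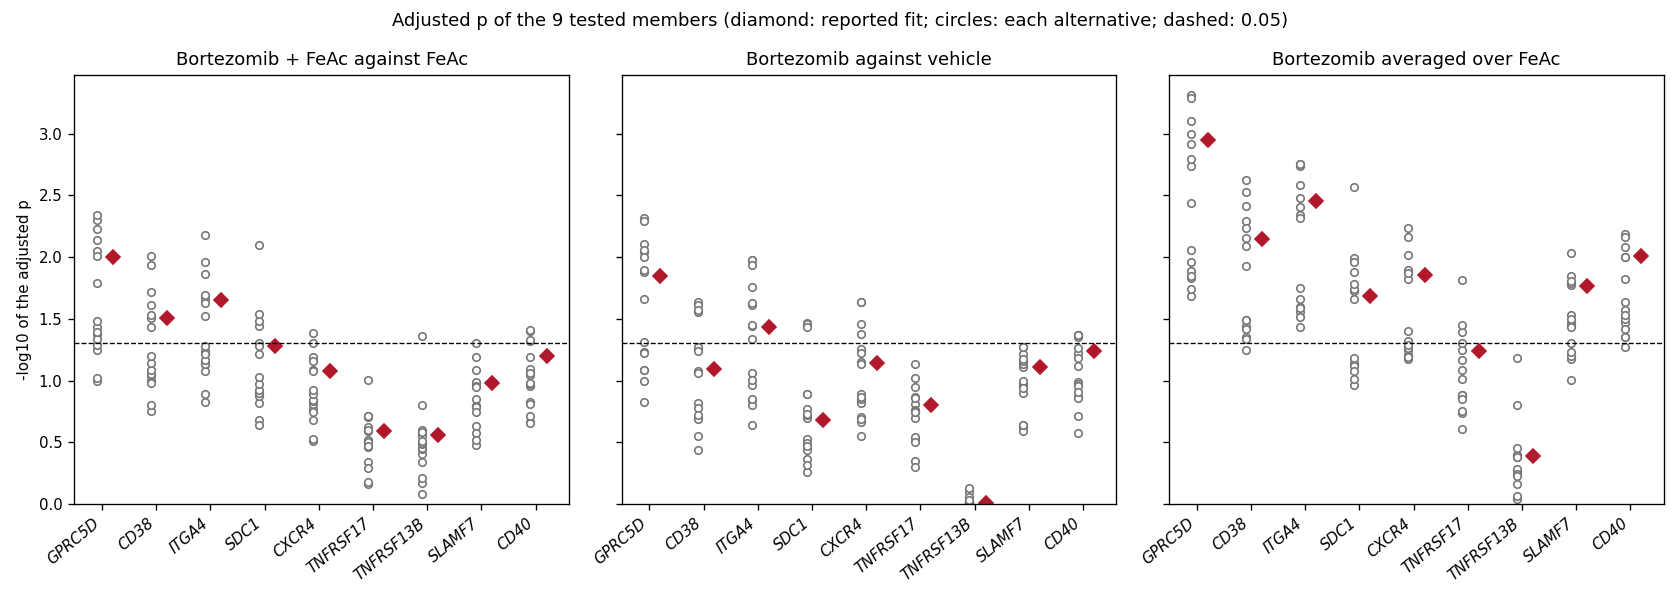
Minus log10 of the adjusted p from limma (vertical axis) for the 9 tested members in bortezomib plus FeAc against FeAc, in bortezomib against vehicle and in the average of both. Diamonds are the reported fits, circles each alternative setting and the dashed line an adjusted p of 0.05, which the circles of GPRC5D and ITGA4 stay above only in the right panel.

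Whether iron altered these receptors was asked with FeAc against vehicle and with bortezomib plus FeAc against bortezomib. In both comparisons 0 of 9 tested members were called by limma, and 0 had an unadjusted p under 0.05. The log2 fold changes of FeAc against vehicle ran from -0.17 for TNFRSF17, with a 95% interval of -0.76 to 0.41, to 0.24 for TNFRSF13B, with an interval of -0.16 to 0.64. For GPRC5D the value was -0.06 with an interval of -0.44 to 0.33, and for ITGA4 it was -0.02 with an interval of -0.38 to 0.34. Among the 9, the FeAc samples of TNFRSF13B lay above the vehicle samples and those of CD40 lay below, while 23.4% of all tested genes were higher and 10.4% were lower in this way. The intervals were wider with bortezomib plus FeAc against bortezomib, where the value of GPRC5D was -0.48 with an interval of -1.44 to 0.47, that of SDC1 was -0.36 with an interval of -1.46 to 0.74, and that of CD38 was -0.46 with an interval of -1.41 to 0.50. The intervals of these 3 genes include decreases past the fold threshold. Without bortezomib plus FeAc replicate 1 these values turned to 0.06, 0.33 and 0.10.

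Over all genes, FeAc against vehicle gave 2 calls among 13998 tested (0.0143%), SNORD22 and AC125388.1, and bortezomib plus FeAc against bortezomib gave 1 among 13865 (0.00721%), RNU4-1. The paper reports many more genes changed by iron in MM.1S cells, at the same fold and adjusted p thresholds. The paper's methods also give 2 biological replicates for RNA sequencing, and they name no test for it. It also reports higher mRNA of steroid synthesis genes after iron by real-time PCR. The fits here used limma on log2(TPM + 1) with 2 samples a group, so few calls do not show that few genes responded. The cause of the difference in counts was not tested. The difference between the 2 effects of FeAc was tested as an interaction. It was called for 0 of the 9 members by limma, with 0 at an unadjusted p under 0.05, and for 1 of 14812 genes (0.00675%), SNORD22. For the members, it ran from -0.59 for SDC1, with a 95% interval of -1.88 to 0.70, to 0.13 for TNFRSF17, with an interval of -0.57 to 0.83. When the effect of FeAc was averaged over both comparisons, also added after the data were seen, 0 members and 4 genes (0.027%) were called, SNORD22, INSIG1, FDFT1 and MSMO1, of which the last 3 act in sterol synthesis or its control. These genes are named because the counts are small and were chosen after their values were seen.

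Ligands and partners of the members were looked at next. CD40LG, which encodes CD40 ligand, was listed at 0 in all 8 samples. CXCL12, the ligand of CXCR4, VCAM1, the ligand of VLA-4, and MUC1, which the study also knocked out, stayed under 1 TPM in every sample, as did TNFRSF13C, the BAFF receptor. TNFSF13B, which encodes BAFF, was at 1.68 and 4.69 TPM with bortezomib plus FeAc, 1.74 and 2.7 TPM with bortezomib, 0.43 and 0.23 TPM with FeAc, and 1.21 and 1.12 TPM with vehicle. It rose with bortezomib plus FeAc against FeAc (log2 fold change 1.56, standard error 0.38, adjusted p = 0.0360 from limma) and was not called with bortezomib against vehicle (0.56, adjusted p = 0.357 from limma). TNFSF13, which encodes APRIL, was at 4.36 and 8.12 TPM with bortezomib plus FeAc, 8.29 and 9.15 TPM with bortezomib, 13.14 and 11.09 TPM with FeAc, and 11.27 and 9.79 TPM with vehicle, and missed the threshold in both comparisons. Of the integrin chains that pair with alpha 4, ITGB1 ranged from 60.29 to 72.43 TPM and ITGB7 from 2181.05 to 4819.72 TPM over the 8 samples. Neither was called. ITGB1 had log2 fold changes of 0.12 for bortezomib plus FeAc against FeAc and -0.07 for bortezomib against vehicle. ITGB7 had -0.64 and -0.37, and against FeAc it was called lower, at -1.11, only without bortezomib plus FeAc replicate 2, and was -0.18 without replicate 1.

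The genes around the members were grouped into 9 lists, of which 118 of 168 genes were tested with bortezomib. Of these 12 were called higher and 10 lower against vehicle, and 11 higher and 16 lower with bortezomib plus FeAc against FeAc. The shares over all tested genes were 6.27% higher and 5.89% lower in the first of these comparisons, and 4.94% and 8.86% in the second. Averaged over both comparisons, 13 of the 118 were called higher and 31 lower, where 8.22% and 14.3% of all tested genes were. With FeAc against vehicle 0 of 116 were called by limma, with 5 at an unadjusted p under 0.05, and with bortezomib plus FeAc against bortezomib 0 of 117, with 2. In the BAFF and APRIL list, with 11 tested genes, ADAM17, a sheddase of surface receptors, was called higher against vehicle at 17.81 and 15.92 TPM with bortezomib and 7.08 and 9.9 TPM with vehicle (log2 fold change 0.93). In bortezomib plus FeAc against FeAc, TNFSF13B was called in this list. The medians of the list were 0.09 and -0.12.

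Of 17 tested genes of CD40 signalling, FAS, RELB and TRAF6 were called higher against vehicle and 0 lower by limma. In bortezomib plus FeAc against FeAc, FAS, TRAF6 and NFKBIA were called higher and CD86 lower. Among all tested genes, 6.27% were called higher and 5.89% lower in the first comparison, and 4.94% and 8.86% in the second. FAS, the death receptor that CD40 signals can induce in B cells, was at 38.9 and 45.2 TPM with bortezomib plus FeAc, 38.48 and 39.51 TPM with bortezomib, 24.8 and 24.96 TPM with FeAc, and 19.08 and 23.68 TPM with vehicle. TRAF6, an adaptor of CD40, had log2 fold changes of 0.95 and 1.00. CD86, a costimulatory ligand, fell in bortezomib plus FeAc against FeAc, at 6.15 and 10.65 TPM with bortezomib plus FeAc and 18.12 and 16.62 TPM with FeAc. The medians of the list were 0.24 and 0.09, against -0.056 and -0.17 over all tested genes.

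Among 20 tested integrins and adhesion genes other than ITGA4, FERMT3 was called higher and ICAM2 lower in both comparisons. Shares called over all tested genes were 6.27% higher and 5.89% lower against vehicle, and 4.94% and 8.86% against FeAc. FERMT3, which encodes kindlin-3, an activator of integrins in blood cells, was at 93.13 and 99.68 TPM with bortezomib plus FeAc, 92.2 and 80.52 TPM with bortezomib, 39.82 and 41.4 TPM with FeAc, and 27.49 and 33.52 TPM with vehicle. ICAM2, a ligand of the integrin LFA-1, was at 18.59 and 26.75 TPM with bortezomib plus FeAc, 21.59 and 27.5 TPM with bortezomib, 39.39 and 38.45 TPM with FeAc, and 49.47 and 45.38 TPM with vehicle. Both were apart between samples with and without bortezomib, in opposite directions.

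Some chemokine receptors were called lower, though CXCR4 itself was not called in either comparison. Of 13 tested genes of the CXCR4 list, CCR2, CCR1 and CXCR3 were called lower and RGS2 higher against vehicle, and CCR10 and GRK2 were also called lower in bortezomib plus FeAc against FeAc. Over all tested genes 5.89% were called lower in the first comparison and 8.86% in the second. The medians of the list were -0.18 and -0.58, against -0.056 and -0.17 over all tested genes. CCR1, a receptor for CCL3, was at 40.79 and 66.92 TPM with bortezomib plus FeAc, 57.4 and 61.63 TPM with bortezomib, 144.72 and 128.06 TPM with FeAc, and 143.53 and 144.31 TPM with vehicle. CCR2, the receptor for CCL2, was at 0.16 and 0.64 TPM with bortezomib plus FeAc, 0.49 and 0.47 TPM with bortezomib, 5.54 and 6.36 TPM with FeAc, and 8.68 and 8.24 TPM with vehicle. Its log2 fold change of -2.68 against vehicle was larger in size than that of GPRC5D. RGS2, which dampens G protein signals, rose with log2 fold changes of 1.55 and 1.82. Against FeAc the value of RGS2 was 1.21 without bortezomib plus FeAc replicate 1, which was not called, and 2.44 without replicate 2 of that group.

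The syndecan list holds enzymes that build or trim heparan sulfate, the sugar chain carried by syndecan 1. Of its 20 tested genes most were not called in either comparison. XYLT2, HPSE and HS2ST1 were called lower against vehicle, where 5.89% of all tested genes were. In bortezomib plus FeAc against FeAc 6 were lower, B3GALT6, NDST1, XYLT1, XYLT2, SULF2 and HPSE, where 8.86% of all tested genes were. Averaged over both comparisons, 10 of the 20 were called lower and 0 higher, where 14.3% and 8.22% of all tested genes were. XYLT2, which starts the chain, was at 4.85 and 5.49 TPM with bortezomib plus FeAc, 4.09 and 4.57 TPM with bortezomib, 10 and 9.44 TPM with FeAc, and 8.69 and 11.48 TPM with vehicle. HPSE, the heparanase that cuts it, was at 0.81 and 2.81 TPM with bortezomib plus FeAc, 1.4 and 1.84 TPM with bortezomib, 5.41 and 5.85 TPM with FeAc, and 5.84 and 5.35 TPM with vehicle. Other genes of the list had positive values against vehicle that were not called, such as 0.52 for EXTL3, 0.51 for SDC4 and 0.35 for HS6ST1. The medians of the list were -0.47 and -0.56.

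Of 9 tested genes that handle NAD beside CD38, NT5E was called lower in both comparisons, where 5.89% and 8.86% of all tested genes were. NT5E, which encodes CD73 and makes adenosine downstream of CD38, was at 1.05 and 1.96 TPM with bortezomib plus FeAc, 1.38 and 2.09 TPM with bortezomib, 5.38 and 6.4 TPM with FeAc, and 5.39 and 6.61 TPM with vehicle. Of 4 tested genes of the SLAM family and its adaptors, SLAMF6 was called lower against vehicle (log2 fold change -0.75, adjusted p = 0.0427 from limma), while its relative SLAMF7 had a positive value. Of the relatives of FCRL5 and GPRC5D, 2 of 10 were tested, and FCRL6 was called higher in both, at 11.66 and 9.58 TPM with bortezomib plus FeAc, 12.56 and 9.85 TPM with bortezomib, 1.21 and 1.41 TPM with FeAc, and 1.12 and 1.04 TPM with vehicle. FCRL6 is an Fc receptor-like receptor. Of all tested genes 6.27% were called higher against vehicle and 4.94% against FeAc.

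Among 24 tested surface antigens of plasma and B lineage cells outside the 10, SLC3A2, SLC7A5, TNFRSF10A, BST2 and TNFRSF8 were called higher against vehicle and CD79B lower. SLC3A2, the heavy chain of the CD98 amino acid transporter, was at 514.89 and 330.58 TPM with bortezomib plus FeAc, 436.32 and 358.89 TPM with bortezomib, 121.86 and 135.37 TPM with FeAc, and 81.46 and 90.86 TPM with vehicle, and its light chain SLC7A5 had log2 fold changes of 1.75 and 1.17. BST2, an antigen that has been targeted in MM, was at 1008.03 and 757.27 TPM with bortezomib plus FeAc, 957.23 and 856.39 TPM with bortezomib, 447.44 and 549.32 TPM with FeAc, and 529.69 and 489.37 TPM with vehicle. CD79B, a chain of the B cell receptor complex, was at 15.43 and 17.45 TPM with bortezomib plus FeAc, 15.61 and 16.51 TPM with bortezomib, 27.54 and 31.22 TPM with FeAc, and 39.29 and 25.75 TPM with vehicle. In bortezomib plus FeAc against FeAc, SLC3A2, SLC7A5, BST2 and TNFRSF8 were higher and SEMA4A and CD79B lower. Shares called over all tested genes were 6.27% higher and 5.89% lower against vehicle, and 4.94% and 8.86% against FeAc. BST2, TNFRSF8 and SEMA4A, and CCR10, GRK2, NFKBIA, B3GALT6, NDST1, XYLT1, SULF2 and HS6ST1 above, were named after their values were seen. EXTL3 and SDC4 were picked by their p and are given although they were not called. Among the 6 plasma cell markers XBP1 alone was called in these 2 comparisons, with log2 fold changes of -0.69 against vehicle and -0.74 against FeAc. JCHAIN (-0.80 and -0.80) and MZB1 (-0.80 and -0.96) were not called in them, nor were IRF4 (0.02 and -0.34), PRDM1 (0.31 and -0.04) and POU2AF1 (0.23 and -0.46). Averaged over both comparisons, XBP1, JCHAIN and MZB1 were called lower, where 14.3% of all tested genes were. The summed level of the 6, most of it JCHAIN, was 3331 to 4924 TPM with bortezomib plus FeAc, 4355 to 4898 TPM with bortezomib, 6636 to 7196 TPM with FeAc, and 6672 to 8839 TPM with vehicle. Of 4 markers of stromal cells, COL1A1 and PDGFRB averaged at least 1 TPM, and their list summed to 5.92 to 8.87 TPM with bortezomib plus FeAc, 6.38 to 7.74 TPM with bortezomib, 1.24 to 2.41 TPM with FeAc, and 1.45 to 1.90 TPM with vehicle, with COL1A2 and COL3A1 at or under 0.22 TPM in every sample. Of 4 erythroid markers, HBB alone averaged at least 1 TPM, with list sums of 3.71 to 5.3 TPM with bortezomib plus FeAc, 2.46 to 5.72 TPM with bortezomib, 10.81 to 11.37 TPM with FeAc, and 10.29 to 13.5 TPM with vehicle. The part of these shifts in the values of the members was not tested. The calls in the lists also changed when single samples were left out, in fits that leave 1 sample in a group. Of 20 called list genes that the rule names, 2 (CCR2 and FCRL6) remained called against vehicle without bortezomib replicate 1, 5 to 10 remained without any other bortezomib, FeAc or vehicle sample, and 19 without either bortezomib plus FeAc sample. Of 17 in bortezomib plus FeAc against FeAc, 1 (FCRL6) remained without either FeAc sample, 4 (CCR2, FCRL6, FERMT3 and SLC3A2) without either bortezomib sample, 6 without bortezomib plus FeAc replicate 1, 14 without replicate 2 of that group, 9 without vehicle replicate 1 and 12 without vehicle replicate 2.

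**Figure D4:**
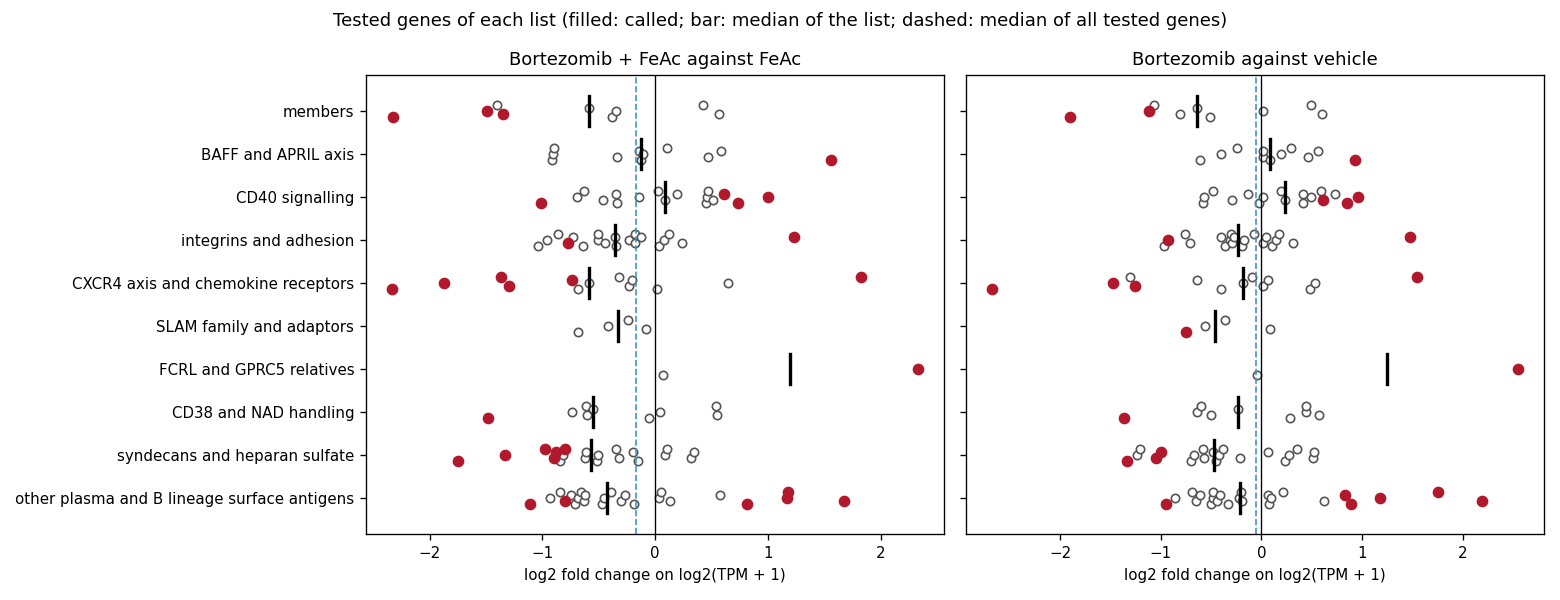
Log2 fold change on log2(TPM + 1) of every tested gene of the members and of 9 lists (horizontal axis), for bortezomib plus FeAc against FeAc (left) and bortezomib against vehicle (right). Filled circles are called genes, black bars the median of each list and dashed lines the median of all tested genes, and the called genes of the syndecan list all lie below 0.

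The genes whose pattern was most like that of a member were sought by Pearson's r of log2(TPM + 1) over the 8 samples, among 9585 genes that averaged 5 TPM or more. These values describe samples that share a library with the member and that fall into 4 with and 4 without bortezomib, so that high values are common. GPRC5D was most like FBH1, ABCB10 and UBE2E2, with r between 0.997 and 0.999. ABCB10, a mitochondrial transporter, was at 7.11 and 10.67 TPM with bortezomib plus FeAc, 10.02 and 11.68 TPM with bortezomib, 24.45 and 23.16 TPM with FeAc, and 23.16 and 24.68 TPM with vehicle. ITGA4 was most like PALM2AKAP2, TSPOAP1-AS1 and ETS1, with r between 0.997 and 0.998, and ETS1, a transcription factor of lymphoid cells, was at 6.01 and 11.9 TPM with bortezomib plus FeAc, 10.58 and 11.29 TPM with bortezomib, 25.2 and 24.17 TPM with FeAc, and 23.19 and 26.93 TPM with vehicle. CD40 was most like RHOB, with r of 0.995. RHOB, a small GTPase, was at 211.12 and 117.07 TPM with bortezomib plus FeAc, 226.99 and 161.23 TPM with bortezomib, 67.2 and 65.78 TPM with FeAc, and 66.55 and 72.22 TPM with vehicle. Like CD40, RHOB was highest in bortezomib replicate 1 and higher in replicate 1 than in replicate 2 of both bortezomib groups. CXCR4 was most like UBE2C, IRAG2 and LINC00869, with r between 0.973 and 0.983.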

How the data were processed

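RNA of 8 MM.1S samples, 2 per group, was extracted as total RNA and prepared with a TruSeq kit, and the study names biological replicates. Per the submitters' processing notes, the tools were RSEM, HISAT2, StringTie, edgeR and DESeq2 on build GRCh38.p13. The sources used here do not give versions, roles or the annotation. Values were deposited in 2 tables whose sample columns name no unit. The deposited values were read as TPM because each sample summed to between 994968 and 996780. The deposited tables also hold the authors' group means in TPM, fold ratios, log2 fold changes and p-values, which were not used. The 2 tables list the same 60671 gene IDs, of which 96.3% were found in GENCODE release 29, the source of positions.

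Levels were tested with limma 3.58.1 in R 4.3.3 (trend, Benjamini-Hochberg adjustment over all tested genes) on log2(TPM + 1), for genes that averaged 1 TPM or more in a group. Fold changes on this scale understate those of low genes. FeAc against vehicle and bortezomib plus FeAc against bortezomib were fitted on their 4 samples, and the other comparisons on all 8, so that samples outside a comparison enter its estimate of spread. The fits were also run on data simulated with independent normal noise for each gene and sample. Shifts shared by the genes of a sample were not simulated, so this does not show how the tests behave on these samples. Figures and other tables used Python 3.11.15. The members, lists and tests were chosen with earlier results of these data known. Named genes are the members, 9 direct partners, and from each list up to 4 tested genes with the smallest p in bortezomib against vehicle and up to 2 that moved the other way, of which those called are given, and the 3 genes most like each of the 4 members with the smallest p, of which 1 result is not reported here. Alternatives were a pseudocount of 0.1, no filter, a mean of at least 5 TPM, other samples in the fit, a block, 2 other scalings, each sample left out and no fold threshold. The averaged effects, a crossed block and the alternatives for list genes were added after the data were seen.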

Additional observations from a re-analysis of the deposited data

Results flagged for a closer look

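The effect of FeAc on SNORD22, a small nucleolar RNA gene, differed between cells with and without bortezomib, with an interaction of -4.89 on log2(TPM + 1) (adjusted p = 0.0167 from limma over all genes). SNORD22 was listed at 0 in both samples with bortezomib plus FeAc, both with bortezomib and both with vehicle, and at 24.56 and 33.55 TPM in the samples with FeAc. With 0 in 3 of the 4 groups the fitted value depends on the pseudocount and gives no fold, and the interaction was no longer called with a pseudocount of 0.1. None of the 9 tested members was called in this test.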

How the results depend on the processing

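The signs of the 9 members in bortezomib plus FeAc against FeAc and in bortezomib averaged over FeAc were kept under all alternatives, and in bortezomib against vehicle only that of TNFRSF13B turned, at -0.13 after rescaling without mitochondrial and immunoglobulin genes. Depth is unknown, each group holds 2 samples, and the calls changed when single samples were left out.

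With no filter on low values, which adds tested genes, bortezomib against vehicle gave 799 called genes and 0 members and bortezomib plus FeAc against FeAc 613 genes and 1 member, against 1800 and 2, and 2044 and 3. With only the 2 groups fitted, members called were 5 against vehicle, and 107 genes with 0 members were called against FeAc. Scaling by the median of ratios, which shifts the median in bortezomib plus FeAc against FeAc by 0.17, gave 5 members there and 1074 genes higher and 800 lower, where the reported fit had 732 and 1312. Rescaling without mitochondrial and immunoglobulin genes shifted it by -0.15 and gave 483 higher and 1455 lower, and in bortezomib against vehicle by -0.13, with 574 higher and 930 lower against 928 and 872. Without filter those splits were 339 and 274, and 513 and 286, and with 2 groups fitted against FeAc 89 and 18.

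FeAc against vehicle called 4 genes with a pseudocount of 0.1, 0 without filter, 4 at a mean of at least 5 TPM and 1 with all groups fitted, against 2. Bortezomib plus FeAc against bortezomib called 0 without filter, at 5 TPM and with all groups fitted, against 1. The interaction called 0 at a pseudocount of 0.1, without filter and at 5 TPM, against 1, and FeAc averaged over bortezomib called 10 without filter and 1 after rescaling, against 4. The cause was not tested.

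By the median of ratios the sign turned for SLAMF7 with FeAc against vehicle (-0.0022), CXCR4 with bortezomib plus FeAc against bortezomib (0.028), and the interaction of SLAMF7 (0.071) and CD40 (0.091), and by rescaling for ITGB1 in bortezomib plus FeAc against FeAc (-0.044). None of these was called.

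The replicate numbers are shared by the groups in the labels, and deviations of same-numbered samples correlated between -0.16 and 0.20. Whether same-numbered samples were handled together cannot be told from these values. With the replicate block FeAc against vehicle called 23 genes, the interaction 0 and FeAc averaged over bortezomib 0, bortezomib against vehicle 1479 with 2 members, and bortezomib plus FeAc against FeAc 1728 with 4. With the FeAc numbers of the replicate block crossed, FeAc against vehicle called 16 genes and bortezomib against vehicle 4 members.

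Leaving out each sample in turn gave 0 to 0 called genes in FeAc against vehicle and in bortezomib plus FeAc against bortezomib, 74 to 2255 in bortezomib against vehicle, 55 to 3275 in bortezomib plus FeAc against FeAc, 5 to 18 in the interaction, 2109 to 4010 in bortezomib averaged over FeAc and 0 to 28 in FeAc averaged over bortezomib. Members called ran from 0 to 6 against vehicle, 0 to 6 against FeAc and 2 to 5 in the average, against 6. Log2 fold changes of FeAc against vehicle ran from -0.24 to 0.16 for CD38, -0.16 to 0.047 for GPRC5D, -0.080 to 0.041 for ITGA4, -0.0031 to 0.22 for SLAMF7 and -0.43 to 0.078 for TNFRSF17. Those of bortezomib plus FeAc against bortezomib ran from -1.01 to 0.096 for CD38, -0.24 to 0.037 for CD40, -0.29 to 0.27 for CXCR4, -1.02 to 0.060 for GPRC5D, -0.69 to 0.19 for ITGA4, -1.05 to 0.33 for SDC1, -0.049 to 0.13 for SLAMF7, -0.40 to 0.15 for TNFRSF13B and -0.11 to 0.014 for TNFRSF17. Interactions ran from -0.97 to 0.13 for CD38, -0.17 to 0.10 for CD40, -0.23 to 0.33 for CXCR4, -0.97 to 0.12 for GPRC5D, -0.67 to 0.21 for ITGA4, -1.28 to 0.10 for SDC1, -0.18 to 0.043 for SLAMF7 and -0.12 to 0.38 for TNFRSF17. In bortezomib against vehicle the range was -0.054 to 0.085 for TNFRSF13B and -0.18 to 0.033 for ITGB1.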
